A study of Mus musculus with 16 samples.

Results

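Intracellular calcium store genes were followed in RNA of mouse cortical synaptosomes. The set held 9 genes chosen by name, out of 48709 genes in the count table: the inositol trisphosphate (IP3) receptors Itpr1, Itpr2 and Itpr3, the ryanodine receptors Ryr1, Ryr2 and Ryr3, the IP3 kinase Itpka, and the store sensors Stim1 and Stim2. Of these, 6 are channels of the store membrane, 1 is an enzyme and 2 are sensors, so the set is wider than channels alone. The count table places them on build GRCm38. Itpr1 (chr6:108213096-108551109), Itpr3 (chr17:27057304-27122223), Itpka (chr2:119742337-119751263), Stim1 (chr7:102267806-102437319) and Stim2 (chr5:53998499-54121057) lie on the plus strand. Itpr2 (chr6:146108299-146502223), Ryr1 (chr7:29003344-29125179), Ryr2 (chr13:11553103-12106945) and Ryr3 (chr2:112631355-113217096) lie on the minus strand. All 9 symbols were found, each a single time, and all 9 passed the filter on low counts in every comparison.

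Synaptosomes (SYN) are nerve endings that pinch off and reseal when brain tissue is homogenised, with attached postsynaptic membrane and some material of other cells. All groups were C57BL/6 mice with no added allele or agent, and all samples came from cerebral cortex. SYN libraries were made at 3 weeks, 5 months and 19 months, and total homogenate (TH), kept before the synaptosomes were enriched, was sequenced at 5 months alone. Each of the 4 groups held 4 libraries described as biological replicates. The sex of the mice and any pooling of animals are not given in the labels, and neither is the source of each replicate, so p-values measure the spread between these libraries.

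The endoplasmic reticulum holds calcium at a much higher concentration than the cytosol. IP3, made by phospholipase C after receptor activation, opens IP3 receptors, whereas ryanodine receptors open when cytosolic calcium rises and so amplify a signal. Itpka, a neuronal kinase that also bundles actin in dendritic spines, phosphorylates IP3 and ends its action on the receptor, and STIM proteins sense an emptying store and open Orai channels in the plasma membrane.

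Library totals ran from 10.6 to 21.7 megacounts (M), and the mitochondrial rRNAs took 17.6% to 52.3% of them. Some libraries stood apart within their groups. The 5 months SYN replicate 4 had the highest summed level of 4 nuclear RNAs among SYN libraries (6240 CPM, counts per megacount of the scaled library), and the 19 months SYN replicate 1 had 52.3% mitochondrial rRNA against 32.9% to 33.6% in the other 19 months libraries. The 4 choroid plexus markers summed to 2638 CPM in TH replicate 4 against 27.7 to 88.0 CPM in the other TH libraries, and to 639.9 CPM in 5 months SYN replicate 4 against 90.4 to 146 CPM in the others of that group. All 6 excitatory neuron markers were detected in every group, whereas the 5 cerebellar markers summed to 6.17 CPM at most and the 6 skeletal muscle markers to 6.59 CPM at most. The 7 striatal markers summed to 306 to 910.5 CPM over all libraries, with 6 higher and 1 lower in SYN than in TH, and the 4 hippocampal markers to 35.0 to 69.9 CPM, with 1 higher and 0 lower. The part of these regions in the results was not tested.

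Alternative exons show which forms of these proteins the RNA can encode. The sequences below are the alternative segments on which the splicing tables of the synaptosomes turn. They are given 5′ to 3′ on the gene's strand, from GENCODE M21 transcripts on build GRCm38. Capitals mark the alternative part, and lower case marks bases that both forms keep. In the third SII exon this marking concerns only the choice of acceptor, since junctions that skip the whole exon were also listed.
Itpr1 SI exon, chr6:108365299-108365343, plus strand: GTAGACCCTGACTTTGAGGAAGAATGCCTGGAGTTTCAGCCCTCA
Itpr1 stretch between alternative 5′ splice sites, chr6:108388339-108388365, plus strand: GTAACAATGATGAGGAGAAGCTGAAGA
Itpr1 first SII exon, chr6:108423333-108423365, plus strand: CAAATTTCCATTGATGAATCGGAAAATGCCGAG
Itpr1 second SII exon, chr6:108431461-108431496, plus strand: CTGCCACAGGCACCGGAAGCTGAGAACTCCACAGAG
Itpr1 SII exon, the third, chr6:108432646-108432696, plus strand: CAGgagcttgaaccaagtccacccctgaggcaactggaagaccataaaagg
Stim2 exon 9, chr5:54110116-54110139, plus strand: GTCGCTGCCTCCTATCTCCTGCAG
Ryr2 end of exon 90, chr13:11594682-11594711, minus strand: cctgtccctgagGTACAAGAAAAGTTTCAG
Ryr2 start of exon 91, chr13:11593128-11593157, minus strand: GAGCAGaaggcgaaagaggaaaaggaagaa
Ryr3 exon 87, chr2:112654439-112654520, minus strand: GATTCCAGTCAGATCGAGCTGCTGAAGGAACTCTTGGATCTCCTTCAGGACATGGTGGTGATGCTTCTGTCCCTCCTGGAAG

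The SI exon of 45 bases lies in the coding part for the IP3-binding end of Itpr1. The 3 SII exons of 33, 36 and 51 bases lie in the coding part for the regulatory domain, and a receptor with the whole SII insert of 120 bases is known as the neuronal form. The 3 capital bases of the third SII exon are kept or lost by a choice of acceptor. Stim2 exon 9, of 24 bases, is the insert of the form known as STIM2.1 or STIM2 beta, which inhibits store-operated entry. The Ryr3 exon has 82 bases, which is not a multiple of 3, whereas the other segments in capitals are multiples of 3.

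The first question was how the store genes were distributed by level in adult synaptosomes. Levels of different genes were compared only as CPM per kilobase of exons (CPM per kb). At 5 months, Itpr1 was highest at 87.5 ± 8.80 CPM per kb (SD, n = 4), above 98.3% of the genes that passed the filter on low counts. Ryr2 followed at 35.7 ± 3.48 CPM per kb, then Itpka at 25.7 ± 2.66 and Stim2 at 18.7 ± 2.09 CPM per kb. The ranges of Itpka (21.7 to 27.5) and Stim2 (16.9 to 21.6) nearly met. Stim1 lay at 8.32 ± 1.01 CPM per kb, Ryr3 at 3.45 ± 0.530 and Itpr2 at 2.15 ± 0.297. Ryr1 (0.738 ± 0.0375 CPM per kb) and Itpr3 (0.314 ± 0.0138 CPM per kb) were lowest. No neighbours in this order overlapped in their 4 libraries. The order of Stim1 and Stim2 depended on the length used: with the longest transcript they lay at 19.8 and 19.5 CPM per kb, since many exons counted for Stim1 belong to other transcripts.

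The order differed in part between groups. In TH, Ryr3 (4.57 to 5.82 CPM per kb) lay above Stim1 (4.04 to 4.29), the reverse of their order in 5 months SYN, but not with the longest transcript (6.54 against 9.93 CPM per kb). At 3 weeks, Itpka (25.5 to 30.05 CPM per kb) overlapped Ryr2 (24.02 to 26.9), and Itpr2 (3.18 to 3.87) overlapped Ryr3 (3.12 to 3.34).

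**Figure D1:**
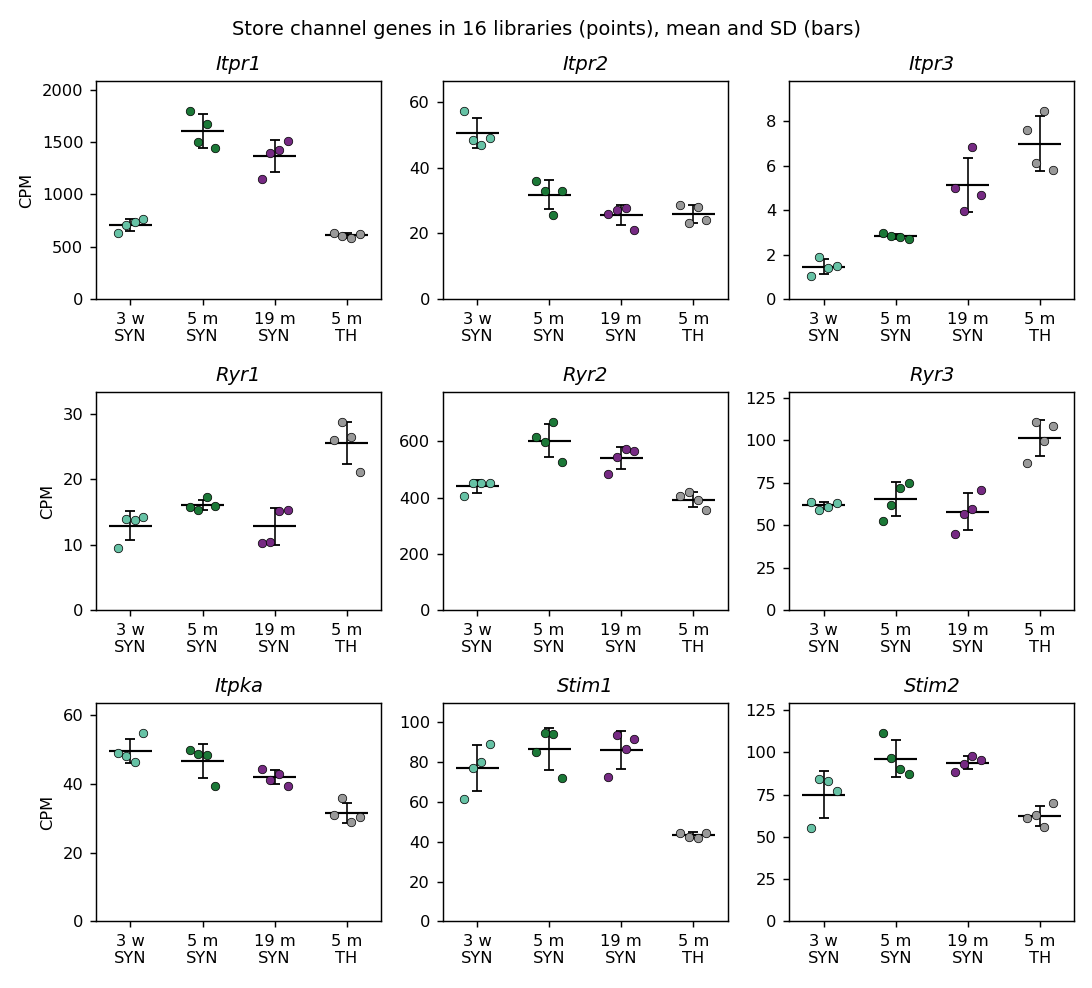
Level of each gene in CPM (vertical axis, from 0) in the 16 libraries, by group: SYN at 3 weeks, 5 months and 19 months, and TH at 5 months. Points are libraries, long bars are means and capped bars are the SD (n = 4). Itpr1 lay between 1441 and 1796 CPM in 5 months SYN, above all TH and 3 weeks SYN libraries. By group mean Itpr3, Ryr1 and Ryr3 were highest in TH, but Itpr3 in 19 months SYN (3.95 to 6.82 CPM) overlapped TH (5.81 to 8.45 CPM).

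Synaptosomes were compared with the homogenate at the same age. In this comparison 6 of the 9 genes were higher in SYN and 3 were lower at an adjusted p under 0.05, so all 9 were called, against 50.1% of 17374 genes tested (24.5% higher and 25.6% lower). The median log2 fold change was 0.58 over the 9 genes and -0.05 over all genes tested. The 9 genes were chosen with earlier results of these data known, so these shares and medians are descriptive. The 3 lower genes were Itpr3, Ryr1 and Ryr3. Except for Itpr2, the groups did not overlap for any of the genes, that is for 8 of 9, against 47.9% of all genes. Without TH replicate 4, and likewise without SYN replicate 4, 8 of the 9 were called, all but Itpr2. The Itpr2 call was lost in 9 of 16 alternatives. The split of all calls depended on the scaling: 4248 genes were higher and 4456 lower (48.8% higher) with TMM, and 3367 higher and 5525 lower (37.9% higher) with upper-quartile scaling, which moved the median of all genes by -0.14.

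Itpr1, the main IP3 receptor of neurons, had the largest difference. It measured 1796, 1505, 1672 and 1441 CPM in the 5 months SYN libraries and 630.2, 600.2, 585 and 626 CPM in the TH libraries. Every SYN library was thus more than double the highest TH library. The fitted log2 fold change was 1.40 (SE 0.0800, edgeR adjusted p = 4.66e-09). Itpr2, known as the main IP3 receptor of astrocytes, measured 35.9, 32.9, 25.6 and 32.9 CPM in SYN and 28.7, 23.1, 28.0 and 24.1 CPM in TH. The groups overlapped, with SYN replicate 3 inside the TH range. Its log2 fold change was 0.31 (SE 0.119, edgeR adjusted p = 0.0437), and the call was lost in 9 of 16 alternatives. Among these were upper-quartile scaling (0.16, edgeR adjusted p = 0.271) and DESeq2 size factors (0.25, edgeR adjusted p = 0.0955). The call was also lost when SYN replicate 1, 2 or 4 or TH replicate 2, 3 or 4 was left out (edgeR adjusted p from 0.0508 to 0.138). All 9 astrocyte markers were higher in SYN (summed levels of 6654 to 7696 CPM against 2912 to 3479 CPM in TH). So were 8 of 8 microglial markers, 5 of 5 markers of oligodendrocyte precursors and 5 of 6 of oligodendrocytes. The part of these cells in the SYN against TH results was not tested.

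Itpr3, best known from secretory epithelia and taste cells, had few reads: 34 to 45 counts per SYN library and 139 to 220 per TH library. It measured 2.98, 2.84, 2.77 and 2.69 CPM in SYN and 7.59, 6.12, 8.45 and 5.81 CPM in TH. The lowest TH library was above all SYN libraries, and the log2 fold change was -1.30 (SE 0.212, edgeR adjusted p = 0.000140). Markers of endothelial and mural cells were also lower in SYN, 8 of 9 by the test, with summed levels of 26.2 to 64.0 CPM in SYN and 169 to 259 CPM in TH. Their part in the Itpr3 result was not tested. TH replicate 4, the library rich in choroid plexus markers, had the lowest Itpr3 of the TH group. Without it the log2 fold change was -1.38 (edgeR adjusted p = 0.000178). The part of choroid plexus in the Itpr3 result was not tested. In RNA of a whole fraction, less material of a cell type and less of an RNA within that material cannot be told apart.

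Among ryanodine receptors, Ryr2, the cardiac form that is also the most abundant in cortex here, was higher in SYN, unlike the other two. It measured 614, 599, 668 and 526 CPM in SYN and 406, 421, 391 and 357 CPM in TH, with no overlap (log2 fold change 0.62, SE 0.0843, edgeR adjusted p = 2.39e-05). Ryr1, the skeletal muscle form, measured 15.7, 15.3, 17.2 and 16 CPM in SYN and 26.0, 28.7, 26.5 and 21.1 CPM in TH. All TH libraries were higher (-0.66, SE 0.120, edgeR adjusted p = 0.000345). Ryr3, a form expressed broadly at low level, measured 52.7, 62.1, 71.9 and 74.9 CPM in SYN and 86.7, 110.5, 99.3 and 108 CPM in TH, again with no overlap (-0.62, SE 0.112, edgeR adjusted p = 0.000363). The 4 nuclear RNAs were all lower in SYN (1276 to 6240 CPM in sum, against 19035 to 23153 CPM in TH), and the part of nuclear RNA in the Ryr1 and Ryr3 results was not tested. Exons of Ryr3 overlap those of Aven, a gene on the opposite strand that had 1050 counts over all 16 libraries, and the strand setting of the counting is not given in the sources used here.

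Itpka measured 49.9, 48.8, 48.4 and 39.4 CPM in SYN and 30.8, 35.7, 29 and 30.2 CPM in TH. All SYN libraries were higher (0.58, SE 0.102, edgeR adjusted p = 0.000266). Stim1 measured 84.9, 94.2, 94.0 and 72.0 CPM in SYN and 44.4, 42.4, 41.9 and 44.5 CPM in TH, and doubled in the fit (log2 fold change 1.00, SE 0.0909, edgeR adjusted p = 4.17e-07). Stim2, the more sensitive of the sensors, measured 111, 96.7, 90.2 and 86.9 CPM in SYN and 61.1, 62.6, 56.0 and 70.0 CPM in TH (0.63, SE 0.0926, edgeR adjusted p = 5.00e-05). Neither sensor overlapped between the fractions.

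**Figure D2:**
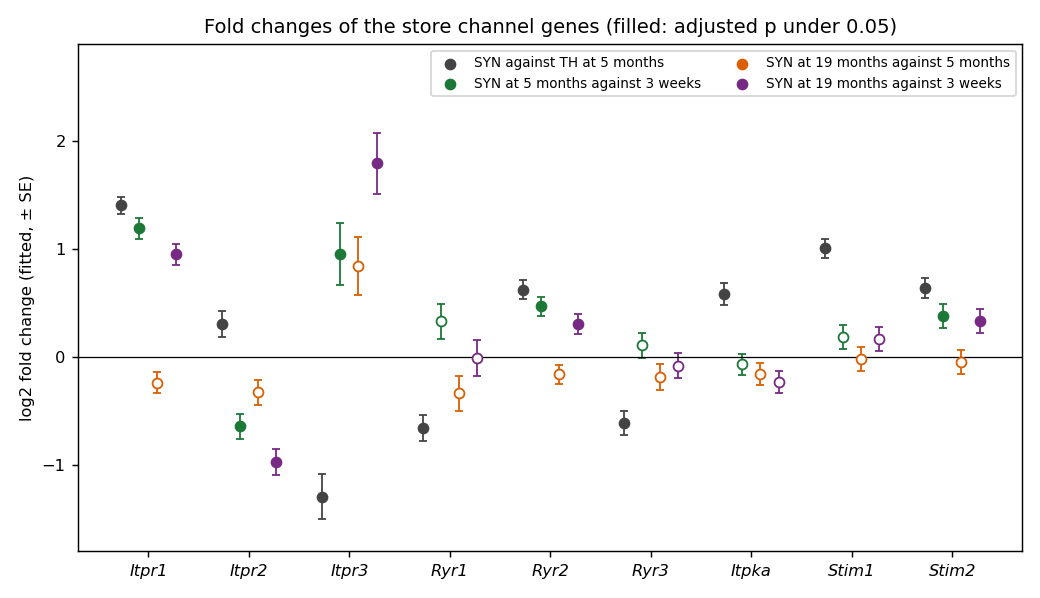
Fitted log2 fold change (vertical axis) of the 9 genes in 4 comparisons, with bars of 1 SE; filled points passed an adjusted p of 0.05 in edgeR's quasi-likelihood test. All 9 genes are filled for SYN against TH, 5 are filled for each comparison with 3 weeks, and none is filled for 19 months against 5 months.

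Age was examined within synaptosomes, from 3 weeks, when cortical synapses still mature, to 5 and 19 months. From 3 weeks to 5 months, 4 of the 9 genes rose (Itpr1, Itpr3, Ryr2 and Stim2) and 1 fell (Itpr2), against 24.6% of 15344 genes tested (13.3% higher and 11.3% lower). From 3 weeks to 19 months, the count was again 4 higher and 1 lower, against 19.4% of all genes (10.0% higher and 9.44% lower). Between 5 and 19 months, 0 of 9 genes were called by edgeR, against 0.300% of all genes, and DESeq2 also called 0. At an unadjusted p under 0.05 the count there was 4 of 9, against 13.7% of all genes. The groups did not overlap for 6 of 9 genes at 5 months against 3 weeks (22.7% of all genes), 2 at 19 against 5 months (8.06%) and 6 at 19 months against 3 weeks (22.9%). The comparisons share groups of libraries, so their results are not independent of each other.

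The largest increase by level was that of Itpr1, from 634, 709, 732 and 769 CPM at 3 weeks to the 1441 to 1796 CPM given above for 5 months. It measured 1144, 1393, 1427 and 1506 CPM at 19 months. All libraries of both later ages lay above all those of 3 weeks. The log2 fold change was 1.19 at 5 months (SE 0.10, edgeR adjusted p = 1.34e-09) and 0.95 at 19 months (SE 0.0996, adjusted p = 8.82e-08), each against 3 weeks. The 5 and 19 months libraries overlapped (-0.24, SE 0.0987, edgeR adjusted p = 0.268). The lowest 19 months value came from replicate 1, the library rich in mitochondrial rRNA, and without it and 5 months replicate 4 the difference between these ages was -0.20 (edgeR adjusted p = 0.430).

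Itpr2 moved the other way, from 57.3, 48.5, 47.0 and 49.1 CPM at 3 weeks to 25.6 to 35.9 CPM at 5 months and 26.1, 27.1, 27.8 and 21 CPM at 19 months. No library of a later age reached the 3 weeks range. The log2 fold change against 3 weeks was -0.65 at 5 months (SE 0.116, edgeR adjusted p = 0.000161) and -0.98 at 19 months (SE 0.118, adjusted p = 8.27e-07). Summed astrocyte markers overlapped between 3 weeks (6809 to 9963 CPM) and 5 months (6654 to 7696 CPM), with 1 marker higher and 2 lower of 9. All 6 oligodendrocyte markers (7121 to 9877 CPM in sum at 3 weeks, 2216 to 2750 CPM at 5 months) and all 5 precursor markers (318 to 362 CPM, then 129 to 148 CPM) fell, and their part in the Itpr2 result was not tested.

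Itpr3 rose from the lowest level of the set. It measured 1.06, 1.90, 1.42 and 1.48 CPM at 3 weeks, from 13 to 29 counts per library, and 2.69 to 2.98 CPM at 5 months. At 19 months it measured 5.01, 3.95, 6.82 and 4.68 CPM, so the 3 ages did not overlap. The log2 fold change against 3 weeks was 0.95 at 5 months (SE 0.289, edgeR adjusted p = 0.0165) and 1.79 at 19 months (SE 0.284, adjusted p = 4.32e-05). The first call was lost without 3 weeks replicate 1 (0.84, edgeR adjusted p = 0.0501). Between 5 and 19 months the difference was 0.84 (SE 0.270, edgeR adjusted p = 0.146) and did not pass. Summed endothelial and mural markers stayed between 26.2 and 64.0 CPM in SYN at all ages, with 1 of 7 tested markers higher at 5 months and 0 called at 19 months against 3 weeks. Other lists also differed between ages. The nuclear RNAs summed to 583 to 855 CPM at 3 weeks, 1276 to 6240 CPM at 5 months and 1338 to 2124 CPM at 19 months. The 6240 CPM came from 5 months replicate 4, and the next highest library of that age had 1885 CPM. All sums of both later ages lay above those of 3 weeks. Against 3 weeks, 2 of 4 were called higher at 5 months and 0 of 4 at 19 months, with median log2 fold changes of 2.08 and 1.28. For 19 against 5 months the median was -0.66, with 0 of 4 called. Microglial markers summed to 119 to 183 CPM at 3 weeks, 164 to 195 CPM at 5 months (3 of 8 called higher) and 195 to 303 CPM at 19 months (4 of 8). The part of these in the age results was not tested.

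Ryr2 rose from 405, 454, 451 and 452 CPM at 3 weeks to 526 to 668 CPM at 5 months (log2 fold change 0.47, SE 0.0897, edgeR adjusted p = 0.000342). It measured 485, 545, 573 and 565 CPM at 19 months (0.31 against 3 weeks, SE 0.0896, adjusted p = 0.0162), a call that was lost without 19 months replicate 3 (adjusted p = 0.0632) or replicate 4 (adjusted p = 0.0581). Both later ages lay above the 3 weeks range. Ryr1 measured 9.54, 14.0, 13.8 and 14.2 CPM at 3 weeks and 10.3, 10.5, 15.2 and 15.2 CPM at 19 months, against 15.3 to 17.2 CPM at 5 months. The 5 months libraries lay above those of both other ages, but neither difference passed (0.33, edgeR adjusted p = 0.145, against 3 weeks; -0.34, adjusted p = 0.357, for 19 against 5 months). Ryr3 overlapped at all ages, with a 95% confidence interval of the log2 fold change from -0.14 to 0.35 at 5 months against 3 weeks and from -0.33 to 0.16 at 19 months against 3 weeks.

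Itpka measured 48.9, 48.1, 46.3 and 54.6 CPM at 3 weeks and 44.4, 41.1, 42.9 and 39.5 CPM at 19 months. All 3 weeks libraries were higher, and the difference did not pass (-0.23, SE 0.10, edgeR adjusted p = 0.106). Stim1 overlapped at all ages and was not called, with an interval from -0.05 to 0.41 at 5 months and from -0.06 to 0.39 at 19 months, each against 3 weeks. Stim2 measured 55.0, 84.5, 83.2 and 77.1 CPM at 3 weeks, 86.9 to 111 CPM at 5 months (0.37, SE 0.111, edgeR adjusted p = 0.0137) and 88.6, 93.1, 98.0 and 95.7 CPM at 19 months (0.33, SE 0.111, adjusted p = 0.0367). The 3 weeks libraries lay below all others. The first call was lost without 5 months replicate 1 (0.30, edgeR adjusted p = 0.0599), and the second without 3 weeks replicate 1 (0.22, adjusted p = 0.0969) or any of 19 months replicates 2, 3 and 4 (adjusted p from 0.0759 to 0.0993).

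Without 5 months SYN replicate 4 and 19 months SYN replicate 1, the same number of the 9 genes was called in each age comparison (5, 0 and 5). In that fit Itpr1 differed from 3 weeks by 1.24 at 5 months and 1.03 at 19 months, and Itpr2 by -0.66 and -0.98 (edgeR, all adjusted p at most 0.000615).

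The makeup of each family followed from these values and was described without a test. Itpr1 made up 91.5 ± 1.26% (SD, n = 4) of the summed IP3 receptor level per kb in 3 weeks SYN, 97.2 ± 0.411% in 5 months SYN and 97.0 ± 0.548% in 19 months SYN. In TH it made up 92.9 ± 0.909%, and the ranges of TH and 5 months SYN did not overlap. The Itpr2 share was 8.11 ± 1.3% at 3 weeks and 2.41 ± 0.392% at 5 months, and Itpr3 stayed under 1% in all SYN libraries but reached 2.17 ± 0.410% in TH. Ryr2 held 87.2 ± 0.578%, 89.4 ± 1.79% and 89.9 ± 1.15% of the ryanodine receptor level in SYN at 3 weeks, 5 months and 19 months, and 78.2 ± 1.92% in TH. Ryr3 held 8.70 ± 1.68% in 5 months SYN and 17.9 ± 2.12% in TH. The less abundant members thus held larger shares of both receptor families in TH than in SYN of the same age. Stim2 held 69.2 ± 3.03% of the STIM level in 5 months SYN and 74.4 ± 1.40% in TH, shares that rest on the exon length used.

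**Figure D3:**
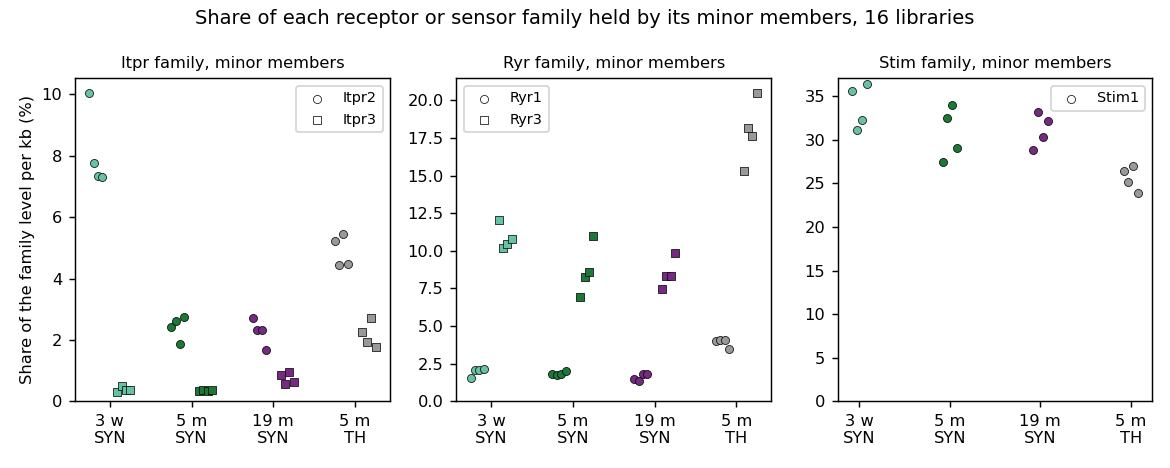
Share of the summed level per kilobase of each family (vertical axis, %, from 0) held by its less abundant members in each library. Circles and squares are single libraries of the 4 groups. Ryr3 lay between 15.3% and 20.5% in TH and between 6.96% and 11% in 5 months SYN, and Itpr2 was highest at 3 weeks.

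Splicing was examined by age in synaptosomes only. LeafCutter groups introns that share splice sites into clusters and gives the usage of each intron within its cluster. The authors' deposited tables held 8 clusters of the 9 genes: 3 of Itpr1, 2 of Ryr2, and 1 each of Ryr3, Stim1 and Stim2. The Stim1 cluster had too few valid samples to be tested in any authors' deposited table. Of the other 7, 0 passed an adjusted p of 0.05 in the authors' deposited table for 5 months against 3 weeks (6.61% of 4250 clusters did), 0 for 19 against 5 months (0.768% of 4037) and 0 for 19 months against 3 weeks (4.81% of 4176). At an unadjusted LeafCutter p under 0.05 the authors' deposited tables gave 1, 0 and 0 of the 7 (24.0%, 15.7% and 20.9% of all clusters). The usages have no per-library values, so no SD can be given.

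The SI exon of Itpr1 was included at nearly full level. Its junctions were used at 49.97% and 48.1% at 3 weeks against 1.97% for the skipping junction in the authors' deposited table for 5 months against 3 weeks. Inclusion, taken as the mean of both inclusion junctions over that mean plus the skipping junction, was 96.1% at 3 weeks and 96.6% at 5 months, and 96.9% at 19 months in the authors' deposited table for 19 against 5 months. The stretch of 27 bases between alternative 5′ splice sites was retained in 95.4% of usage at 3 weeks, 95.6% at 5 months and 97.2% at 19 months, from the same authors' deposited tables. The junction that skips all 3 SII exons was listed in 1 authors' deposited table only, at 0.134% at 5 months and 0.853% at 19 months. The junction from the same donor into the first SII exon took 29.7% and 27.3% there. The junction that skips only the third SII exon took 0.402% at 3 weeks and 0.377% at 5 months in the authors' deposited table of that pair. These usages are shares of a cluster with several junctions, so they are not on the scale of the SI inclusion. A choice was visible at the third SII exon, where the longer form with CAG at its start made up 49.3% at 3 weeks and 41.2% at 5 months in the authors' deposited table (LeafCutter adjusted p = 0.342 for the cluster). The authors' deposited table for 19 months against 3 weeks gave 49.4% and 42.5% (LeafCutter adjusted p = 0.295).

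Stim2 was spliced mostly to the form without exon 9. Inclusion was 10.9% at 3 weeks and 9.65% at 5 months in the authors' deposited table of that pair (LeafCutter adjusted p = 0.823). It was 10.2% at 5 months and 7.14% at 19 months in the authors' deposited table for 19 against 5 months (adjusted p = 0.764), and 11.5% and 6.83% in that for 19 months against 3 weeks (adjusted p = 0.452). The later age was lower in each table, by amounts that did not pass the test. For 5 months against 3 weeks the 2 junctions of exon 9 differed in direction in the authors' deposited table. The junction into the exon went from 11.9% to 9.57%, and that out of it from 7.75% to 8.03%. The tables share libraries.

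The Ryr2 cluster at exons 90 and 91 had the smallest LeafCutter p of the set, 0.0297 for 5 months against 3 weeks in the authors' deposited table (adjusted p = 0.161). The annotated junction took 89.6% at 3 weeks and 88.9% at 5 months in the authors' deposited table. The junction that drops the 18 capital bases at the end of exon 90 went from 6.62% to 4.72%, and that which drops the 6 capital bases at the start of exon 91 went from 3.75% to 6.39%, in the same authors' deposited table. Neither alternative site is in the GENCODE M21 annotation. In Ryr3, the junction that skips exon 87 was listed only in the authors' deposited table for 19 against 5 months. Its usage within the cluster was 1.91% at 5 months and 9.99% at 19 months (LeafCutter adjusted p = 0.540). Inclusion of exon 87, taken as for the SI exon, was 96.2% at 5 months and 81.8% at 19 months in the same authors' deposited table.

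**Figure D4:**
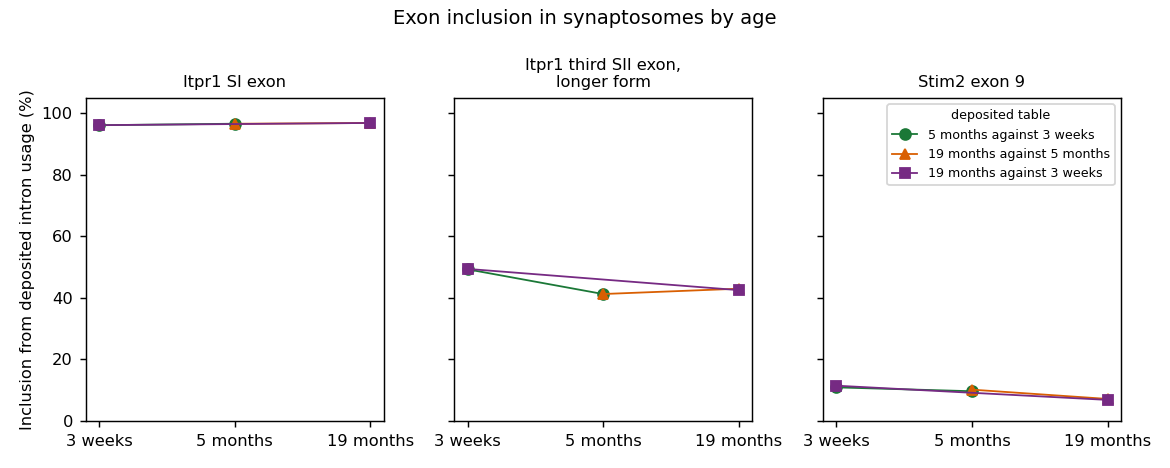
Inclusion (vertical axis, %, from 0) of the Itpr1 SI exon, of the longer form of the third Itpr1 SII exon and of Stim2 exon 9 in synaptosomes at 3 ages. Each colour is 1 of the authors' deposited tables, which were fitted separately. Itpr1 SI lay near 96% at all ages, and Stim2 inclusion lay between 6.83% and 11.5%.

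The authors' deposited tables of DIEGO, a second splicing method, marked 0 junctions of any gene as significant (of 94845, 89750 and 92746), so a count over the 9 genes says nothing about them, and they listed 0 junctions of Itpr1 and Ryr2 at any pair of ages, and 0 of Itpr3 and Ryr3 at 2 of the 3 pairs. The smallest q-value among the 9 genes was 0.0489, for 1 of 35 Itpr2 junctions at 19 months against 3 weeks in the authors' deposited table, where 640 of 92746 junctions had a q under 0.05.

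The genes that act around the store channels were examined as 4 lists of 103 genes, 99 of them in the count table. The lists were chosen with earlier results of these data known, so counts beside the shares of all genes are descriptive. In SYN against TH, 51 of 93 tested genes were higher and 7 lower (24.5% and 25.6% of all genes tested), with a median log2 fold change of 0.46 against -0.05 over all genes. Store refilling and calcium buffers of the endoplasmic reticulum had 15 higher and 0 lower of 18, with a median of 0.72. The calcium-binding chaperones Calr and Canx had log2 fold changes of 1.36 (edgeR adjusted p = 1.58e-08) and 1.06 (adjusted p = 4.52e-08), and Tmbim6, a calcium leak protein, 0.91 (adjusted p = 1.32e-07). The list of IP3 production and removal had 16 higher and 4 lower of 30. It was led by the muscarinic receptor Chrm1 (1.24, edgeR adjusted p = 1.58e-07), the metabotropic glutamate receptor Grm5 (0.82, adjusted p = 1.05e-06) and the phospholipase Plch2 (0.85, adjusted p = 1.78e-06). All 3 couple to or form the enzyme step that makes IP3.

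Partners and regulators of the channels had 14 higher and 3 lower of 31 in SYN (24.5% and 25.6% of all genes). The scaffold Homer2, which links glutamate receptors to IP3 receptors, had a log2 fold change of 1.67 (edgeR adjusted p = 1.84e-09). The junctophilins Jph3 and Jph4, which hold the reticulum against the plasma membrane, had 1.72 (adjusted p = 4.49e-09) and 1.36 (adjusted p = 7.79e-09). In the list of store-operated entry, 6 of 14 were higher and 0 lower. They included the channel Orai2 (42.3 ± 2.00 against 18.8 ± 1.88 CPM, 2.27-fold, by edgeR an adjusted p of 2.34e-07), Saraf, which shuts off this entry (0.90, adjusted p = 1.89e-06), and the cation channel Trpc5 (1.28, adjusted p = 3.23e-06).

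With age the lists had fewer calls and no common direction. At 5 months against 3 weeks, 19 of 92 pathway genes were higher and 14 lower (13.3% and 11.3% of all genes), and at 19 months against 3 weeks, 18 and 11 (10.0% and 9.44% of all genes). Between 5 and 19 months edgeR called 0 (13 of 92 had an unadjusted p under 0.05, near the 13.7% of all genes), with counts of 3 to 5 under 4 other settings, DESeq2 among them (3). Every call in the list of IP3 production and removal at 5 months was an increase (8 of 30), led by the IP3 kinase Itpkb (0.79, edgeR adjusted p = 8.05e-06), the IP3 phosphatase Inpp5a (0.52, adjusted p = 0.00168) and the phospholipase Plce1 (0.62, adjusted p = 0.00382). Itpkb and Plce1 were also higher at 19 months against 3 weeks, by 0.75 (adjusted p = 1.91e-05) and 0.62 (adjusted p = 0.00523).

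Partners and regulators were mixed, with 8 higher and 7 lower of 31 at 5 months against 3 weeks (13.3% and 11.3% of all genes). Tmem38a, a counter-ion channel of the store, and Fkbp1a, which stabilises ryanodine receptors, fell by 0.89 and 0.56 on the log2 scale (edgeR adjusted p = 4.25e-06 and 4.47e-05), and Asph rose by 0.57 (adjusted p = 4.27e-05). At 19 months the list had 9 higher and 8 lower against 3 weeks (10.0% and 9.44% of all genes). In that comparison triadin (Trdn), an anchor of ryanodine receptors in muscle, rose from 0.905 ± 0.254 to 7.34 ± 2.69 CPM (3.03, edgeR adjusted p = 3.52e-06). Asph (0.58) and Fkbp1a (-0.53) were called there too. Refilling and buffer genes had 1 higher and 6 lower of 18 at 5 months, beside the same 13.3% and 11.3% of all genes. Among them the leak channel Tmco1 rose by 0.59 (adjusted p = 0.000826), and the chaperones Hspa5 and Pdia6 fell by 0.50 and 0.40 (adjusted p = 0.00348 and 0.0176). At 19 months against 3 weeks only Tmco1 (0.66) and Rcn3 (-1.08) of that list were called.

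In the list of store-operated entry, 2 of 13 were higher and 1 lower at 5 months against 3 weeks (13.3% and 11.3% of all genes). The cation channel Trpc6 rose by 1.13 (edgeR adjusted p = 6.73e-06) and Sept4 by 0.42 (adjusted p = 0.00573), and Orai2 fell by 0.30 (adjusted p = 0.0199). At 19 months against 3 weeks Trpc6 was higher by 1.03 (adjusted p = 3.07e-05) and Sept7 lower by 0.33 (adjusted p = 0.00912).

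**Figure D5:**
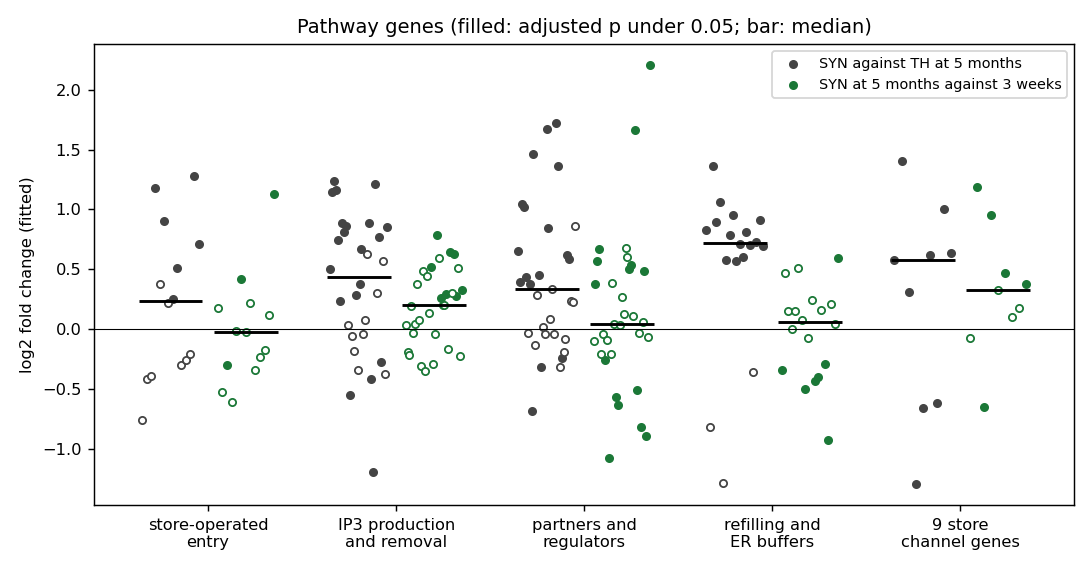
Fitted log2 fold change (vertical axis) of the genes of 4 pathway lists and of the 9 store genes, for SYN against TH at 5 months and for SYN at 5 months against 3 weeks. Each point is a gene, filled where edgeR's adjusted p was under 0.05, and bars are list medians. The median of refilling and buffer genes was 0.72 in SYN against TH and 0.06 with age.

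The genes with the most similar profile over the 16 libraries were found by the root mean square difference of log2 CPM, each gene centred on its own mean, among 10278 genes (10279 for Itpr3) with at least 5 CPM on average. The distances describe libraries that share scaling and groups. Stim1 had the closest neighbours, Canx (0.0898), Scn2b (0.0910) and Gpr158 (0.0910), against a median distance of 0.462 to all candidates. Ryr2 lay nearest to Car10 (0.0941), Dapk1 (0.0967) and Dvl1 (0.0999), and Itpka to Rusc2 (0.0958), Pmm1 (0.0985) and Rapgefl1 (0.0985). For Itpr1 the nearest were Zbtb4 (0.183), Rnf169 (0.188) and Sptb (0.189). Stim2 was followed most closely by Mgat4a (0.125), and Ryr3 by Zfp445 (0.157). Ryr1, Itpr2 and Itpr3 were nearest to Prosc (0.177), Lmnb1 (0.187) and Hapln2 (0.410). Itpr3, with the fewest counts, had the most distant nearest gene of the set.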

How the data were processed

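RNA of 16 mouse cortex libraries was analysed from the authors' deposited whole-number counts per gene. Per the submitters' processing notes, the tools were bcl2fastq 2.20.0.422, cutadapt 1.18, Trimmomatic 0.38 and Subread's featureCounts, and the build was GRCm38.p6. Neither the counting's strand setting nor its annotation release is given in the sources used here. Per the labels' protocols, libraries were made from 10 ng of RNA with a stranded low-input kit and depleted of rRNA. The authors' deposited LeafCutter tables hold a fraction of usage per intron and age and a p-value per cluster, and those of DIEGO, also deposited by the authors, give q-values for single junctions.

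Counts were filtered with filterByExpr, TMM-scaled and put through the quasi-likelihood F test of edgeR 4.0.16 (R 4.3.3), Benjamini-Hochberg adjusted over all genes tested. SYN against TH used 8 libraries and the ages 12 in 1 fit. CPM values use TMM over all 16 libraries, so a ratio of means can differ slightly from the fitted change. Intervals are 95% from the fit. The members and lists were chosen with earlier results of these data known. All 9 members were named, with up to 3 called genes per list and comparison by adjusted p, and the nearest genes of each member. A gene that this rule names is not reported here. Code was tested on simulated data. No columns of any 2 libraries were identical. The 5 months SYN and TH columns share their numbers, which was read as shared preparations. Correlations of same-numbered deviations (0.0884, 0.0200, 0.0176 and 0.144) did not all exceed 0.1, so no pairing was used. The best correlations with another number were 0.0227, 0.0755, 0.0231 and -0.0467, lower for replicates 1 and 4 and higher for replicates 2 and 3. These correlations do not settle whether the fractions are paired. The summed choroid plexus markers were highest in replicate 4 of both fractions (639.9 CPM in SYN and 2638 CPM in TH), as shared preparations would give. The main fit treats the 8 libraries as independent, so its p-values for SYN against TH leave any pairing out. With a replicate block all 9 members were still called in that comparison. Alternatives included DESeq2 1.42.0, other scalings and filters, a replicate block and leaving out libraries. Leaving out 5 months SYN replicate 4 with 19 months SYN replicate 1 was chosen after the data were seen.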

Additional observations from a re-analysis of the deposited data

Results flagged for a closer look

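Each gene and group of 4 libraries was screened for a single library far from the other three, 36 sets in all, of which chance would mark about 1 in 20. In 3 weeks SYN, replicate 1 had 9.54 CPM of Ryr1 where the nearest library had 13.8 CPM. The same library had 404.6 CPM of Ryr2 where the nearest had 450.6 CPM. It was also the lowest 3 weeks library for Itpr1, Itpr3, Stim1 and Stim2 and the highest for Itpr2 (57.3 CPM) and Ryr3 (63.5 CPM), and had 51.7% mitochondrial rRNA, the highest of its group. In 5 months SYN, replicate 4 had 39.4 CPM of Itpka where the nearest library had 48.4 CPM, and this was the library with the highest nuclear RNA sum among synaptosomes.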

How the results depend on the processing

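Over 36 tests of the members and 630 alternative values, 0 called results changed direction and 17 values changed a call, all in 5 tests: Itpr2 for SYN against TH, Itpr3 and Stim2 for 5 months against 3 weeks, and Ryr2 and Stim2 for 19 months against 3 weeks. In 5 uncalled tests near 0 the sign differed in at least 1 alternative: Itpka for 5 months against 3 weeks (-0.10 to 0.0023), Stim1 (-0.09 to 0.06) and Stim2 (-0.09 to 0.03) for 19 against 5 months, and Ryr1 (-0.12 to 0.08) and Ryr3 (-0.20 to 0.03) for 19 months against 3 weeks. Members called for 19 months against 3 weeks (5) ranged from 3 to 5 when each library was left out, and pathway genes (29) from 19 to 29. Genes called between 5 and 19 months (46) ranged from 0 to 124 with 1 library left out, and were 292 without a filter, 310 with the DESeq2 Wald test, 28 with all 16 libraries in the fit, 320 with only the 8 libraries compared and 5 without 5 months SYN replicate 4 and 19 months SYN replicate 1. Pathway genes called there (0) were 3 without a filter, 3 with DESeq2 and 5 with only 8 libraries. The causes were not tested. With a replicate block, 264 genes and 4 pathway genes were called between 5 and 19 months. The block changed no other call count by over 1.5 times, and 9, 5, 0 and 5 members were called with it. Age groups share only replicate numbers.

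With the length of the longest transcript, levels per kb in 5 months SYN were 162 for Itpr1, 2.73 for Itpr2, 1.04 for Ryr1, 4.23 for Ryr3 and 19.8 for Stim1, since fewer bases divide the same counts. Depth limits Itpr3 most, at 13 to 74 counts per SYN library.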
